A study of Homo sapiens with 12 samples.

Results

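Chemokines are small secreted proteins that guide the movement of cells, and they act through receptors of the G protein-coupled family on the surface of the cell that moves. Described here are 10 genes of this system, 5 ligands (CXCL10, CXCL16, CCL3, CCL4 and CCL5) and 5 receptors (CXCR4, CCR1, CCR2, CCR10 and CXCR3), of 38478 genes in the deposited expression matrix. They are a list of named genes with no threshold on their values. All were found in the matrix.

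The cells were of the human line OPM-1 of multiple myeloma, a cancer of plasma cells, grown in RPMI-1640 medium with serum. They were kept for 48 h in 1 of 4 conditions, namely the solvent DMSO, lenalidomide (LEN) at 0.1 μM, AI-10-104 at 1 μM, and both agents together at these doses (LEN+AI-10-104). Lenalidomide makes the ubiquitin ligase receptor cereblon bind and degrade the lymphoid transcription factors IKZF1 and IKZF3, and AI-10-104 blocks the binding of RUNX transcription factors to their partner CBFβ. Polyadenylated RNA was sequenced from 3 biological replicates of each condition, 12 samples in all, and every value comes from this single line, without the stromal and immune cells that surround myeloma cells in bone marrow.

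In bone marrow, CXCR4 on plasma cells binds CXCL12 made by stromal cells and holds the cells in their niche. CCR1 binds CCL3 and CCL5, and CCL3 is often made by myeloma cells themselves and is known for its link to bone disease. CCR10 is a receptor of plasma cells for CCL27 and CCL28 of epithelia. CXCR3 is the receptor of the interferon-inducible ligands CXCL9, CXCL10 and CXCL11.

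Values are RPKM, the reads counted on a gene per kilobase of its length and per 1000000 reads counted on all genes, so levels of different genes can be compared. The reads behind each value were computed back, and came to between 16352548 and 31386210 reads on genes per sample, with the fewest in the LEN+AI-10-104 samples (16352548 to 20419807). Up to 3 reads in a sample were taken as its floor. Such floors speak for the error of counting alone, because these libraries carry no molecular identifiers and 2 reads can stem from 1 molecule. Among plasma cell markers, 7 of 8 had a mean of at least 1 RPKM (SDC1, 146 RPKM, and TNFRSF17, 180 RPKM, for example), and CD27 had 0 to 5 reads. Markers of mature B cells, of T and NK cells and of monocytes and macrophages reached 1 RPKM for 0 of 4, 0 of 6 and 0 of 6 genes, and 1 of 5 stromal and endothelial markers did (PECAM1, 1.22 RPKM). The AI-10-104 replicate 2 library stood apart from the other libraries of its condition, with a chi-square per degree of freedom of 7.4 and 9.64 against them, where they gave 2.82 against each other. Other conditions also held such a library. These were LEN+AI-10-104 replicate 3 (5.1 and 5.69, where the others gave 1.88), DMSO replicate 1 (4.43 and 6.52, against 2.77) and LEN replicate 2 (3.93 and 5.05, against 2.37).

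The members fell into 3 levels. CXCR4, CCR1 and CCR10 were abundant, with means over the 12 samples of 107, 96.8 and 30.9 RPKM, and in DMSO they ranked 680, 738 and 2239 of the 38478 genes. CXCL10 and CXCR3 were detected in every sample at 8 to 29 and 12 to 33 reads, with means of 0.517 and 0.488 RPKM. CXCL16 had 0 to 2 reads and CCR2 0 to 5. CCL3, CCL4 and CCL5 had 0 reads in all 12 samples. By counting error alone this allows a level of up to 0.0767, 0.0917 and 0.0699 RPKM in the shallowest library. For CCL3 and CCL4 this bound is uncertain, since how reads matching their near-identical copies were counted is not given. The matrix thus lists 3 of the receptors at high levels and 4 of the 5 ligands at 0 to 2 reads per sample.

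**Figure D1:**
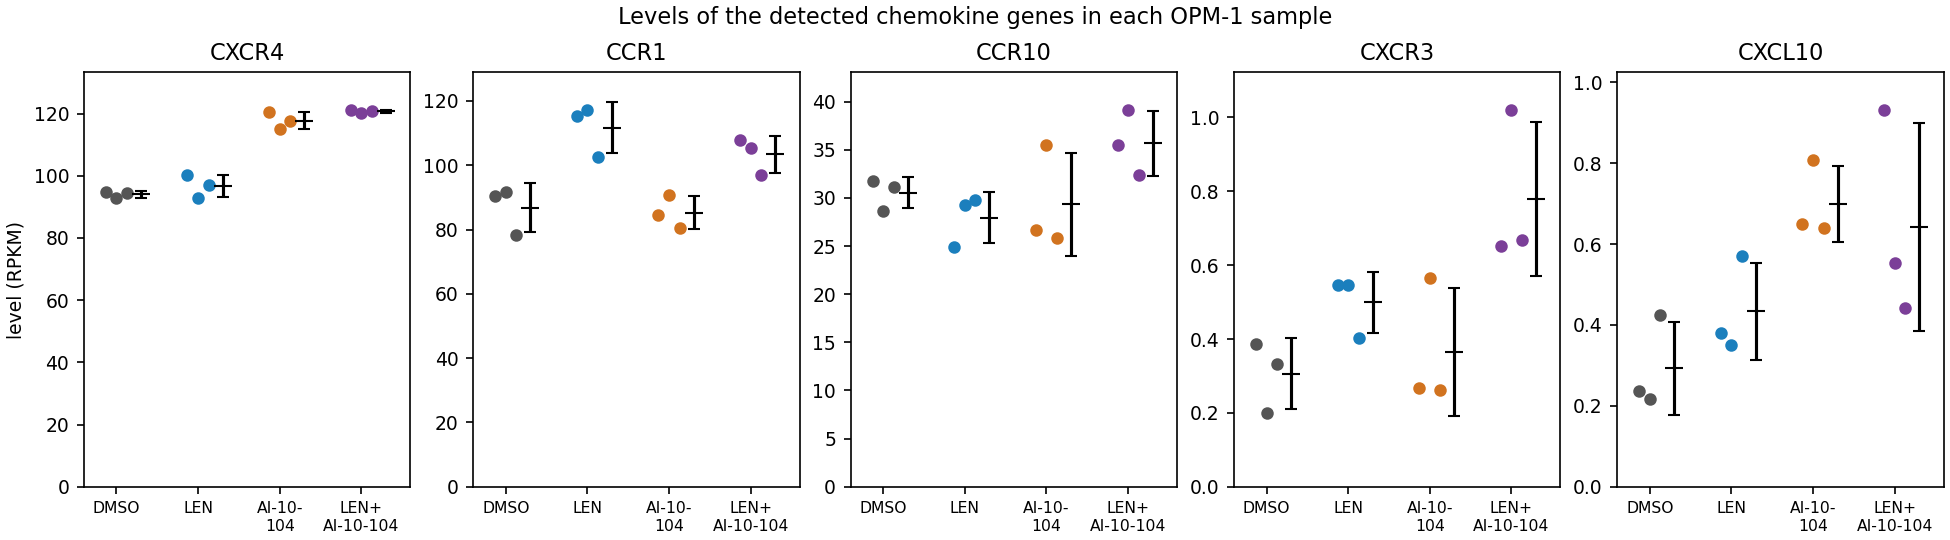
RPKM of the 5 members detected in every sample (vertical axes, each from 0) in the 4 conditions; points are samples and the bars beside them are the mean ± SD (n = 3). The 6 CXCR4 points of the AI-10-104 and LEN+AI-10-104 samples, at 115 to 121 RPKM, lie above the 6 others, at 92.8 to 100.1 RPKM.

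The conditions were compared with limma on log2(RPKM + 0.1) over the 11241 genes whose mean over the samples reached 0.5 RPKM, with Benjamini-Hochberg adjustment over all of them. Calls needed a limma adjusted p of 0.05 or less together with a log2 fold change of 0.32 or more in size, a fold of 1.25, and folds are on the log2(RPKM + 0.1) scale. Of the 10 members, 4 passed the filter on low values, CXCR4, CCR1, CCR10 and CXCL10. The comparisons with DMSO share the DMSO samples.

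CXCR4 had the highest deposited RPKM of the members in DMSO, and its level was higher in the samples with AI-10-104. It was 94.7, 92.8 and 94.5 RPKM in DMSO replicates 1, 2 and 3, and 100.1, 92.9 and 97.0 RPKM in the LEN replicates. It was 121, 115 and 118 RPKM in the AI-10-104 replicates, and 121, 120 and 121 RPKM in the LEN+AI-10-104 replicates. All 6 samples with AI-10-104 were above all 6 samples without it, and the DMSO and LEN samples overlapped. These values rest on 3904 to 6809 reads per sample.

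The CXCR4 level rose 1.25-fold with AI-10-104 against DMSO (log2 fold change 0.32 ± 0.03 SE, limma adjusted p = 0.000163) and 1.28-fold with LEN+AI-10-104 against DMSO (0.36 ± 0.03, adjusted p = 4.48e-05). Between LEN+AI-10-104 and LEN the difference was of the same size, and its log2 value of 0.3199 was just under the threshold, with a limma adjusted p of 0.000187, so it was not called. LEN alone left a difference from DMSO of 0.04 on the log2 scale (95% interval -0.03 to 0.11, adjusted p = 0.76), and adding LEN to AI-10-104 gave 0.04 (-0.03 to 0.11, adjusted p = 0.46). The interaction, which asks whether the effect of AI-10-104 differed between cells with and without LEN, was -0.0046 on the log2 scale (-0.10 to 0.09, adjusted p = 0.97). The change with AI-10-104 lay so near the fold threshold that it was not called after median-ratio rescaling or with voom on the reads (both 0.32 when rounded), nor without DMSO replicate 2 (0.3153) or AI-10-104 replicate 1 (0.3072), although its limma adjusted p was at most 0.00591 under each of the 23 alternatives. The call with LEN+AI-10-104 against DMSO was made in 23 of 23.

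CXCR4 is at chr2:136114349-136119177 on the minus strand (GRCh38, GENCODE 44). The genes whose log2 level over the 12 samples was most like that of CXCR4 were MT1X (Pearson r = 0.973), TSC22D3 (0.971) and MT2A (0.970). MT1X and MT2A encode metallothioneins, which bind zinc and other metals, and TSC22D3 encodes GILZ, a protein induced by glucocorticoids. Their changes differed in size from that of CXCR4, with MT1X at 32.3 RPKM in DMSO and 141 RPKM with AI-10-104 and TSC22D3 at 6.91 and 9.78 RPKM. These correlations were picked as the highest among all genes tested, and the points share their libraries and the 4 conditions.

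CCR1, the receptor of CCL3 and CCL5, had a level close to that of CXCR4 in DMSO, and it was higher in the samples with LEN. Its values were 90.6, 91.7 and 78.2 RPKM in the DMSO replicates and 115, 117 and 103 RPKM in the LEN replicates. They were 84.5, 90.7 and 80.5 RPKM in the AI-10-104 replicates and 108, 105 and 96.8 RPKM in the LEN+AI-10-104 replicates. The 6 samples with LEN were all above the 6 samples without it, and the DMSO and AI-10-104 samples overlapped.

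The CCR1 level rose 1.29-fold with LEN against DMSO (log2 fold change 0.36 ± 0.07 SE, limma adjusted p = 0.0375). Against LEN it was 0.764-fold in AI-10-104, which was called down (log2 fold change -0.39 ± 0.07, limma adjusted p = 0.00542). LEN+AI-10-104 gave 0.25 against DMSO (adjusted p = 0.0525) and 0.28 against AI-10-104 (adjusted p = 0.0275, below the fold threshold), and neither was called. AI-10-104 against DMSO was -0.02 (95% interval -0.18 to 0.13, adjusted p = 0.88), and the interaction was -0.09 (-0.31 to 0.14, adjusted p = 0.72).

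The call of CCR1 with LEN changed with the libraries fitted. Its log2 fold change stayed between 0.29 and 0.42 under the 23 alternatives, and the call was made in 13 of them. It was lost without DMSO replicate 1, 2 or 3, without LEN replicate 1 or 2, without AI-10-104 replicate 1, and without LEN+AI-10-104 replicate 1 or 2, with limma adjusted p between 0.0543 and 0.167. The difference between AI-10-104 and LEN, a comparison added after seeing the data, was called in 23 of 23.

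The ratio of the CXCR4 level to the CCR1 level, both in RPKM, sets these 2 abundant receptors side by side. It was 1.01 to 1.21 in the DMSO samples and 0.793 to 0.945 in the LEN samples, and it was 1.27 to 1.46 in the AI-10-104 samples and 1.12 to 1.25 in the LEN+AI-10-104 samples. On these values CCR1 was the higher of the pair in the 3 LEN samples, and CXCR4 in the 9 others. Which receptor is higher depends on the gene lengths, 2005 bases for CXCR4 and 2676 for CCR1 as deposited and 2902 and 2646 exon bases in GENCODE 44. A check made after seeing the data divided the same reads by the GENCODE lengths. Reads were not counted anew on those exons, so the values are not levels measured on that model. The DMSO means came to 64.9 for CXCR4 and 87.8 for CCR1, and the ratio was under 1 in all 12 samples. It was 0.542 to 0.646 in LEN, 0.691 to 0.825 in DMSO, 0.767 to 0.852 in LEN+AI-10-104 and 0.867 to 0.998 in AI-10-104. The order of the conditions within each gene does not depend on its length. The RNA is of whole cultures, in which fewer cells of a kind and less RNA per cell cannot be told apart.

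**Figure D2:**
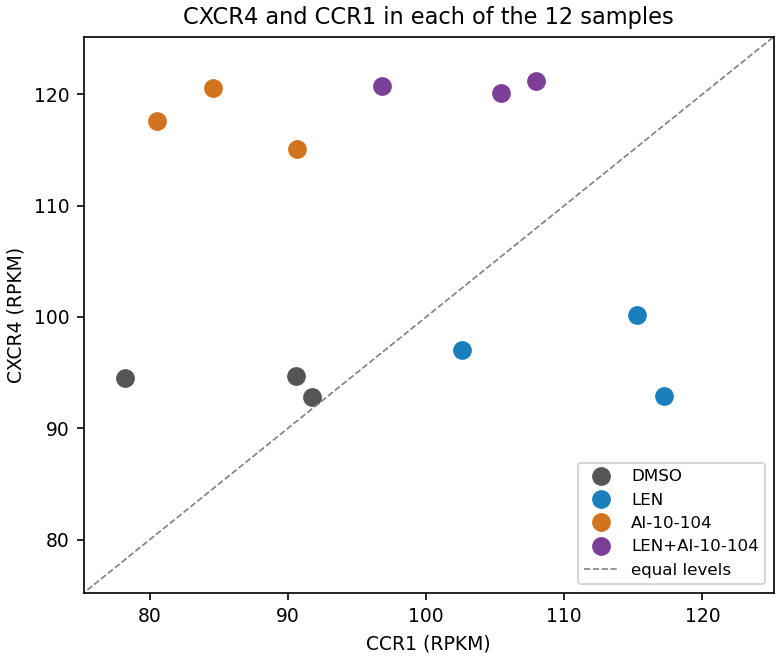
CXCR4 level (vertical axis, RPKM) against CCR1 level (horizontal axis, RPKM) in each of the 12 samples, coloured by condition; the dashed line marks equal levels on the deposited gene lengths and the axes do not start at 0. Samples with AI-10-104 lie above 115 RPKM of CXCR4, and samples with LEN lie right of 96 RPKM of CCR1, so that LEN+AI-10-104 takes the upper right.

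CCR1 is at chr3:46201711-46208313 on the minus strand, in a cluster of chemokine receptor genes, and lies within the span of CCR3 on the other strand without shared exon bases. Of the cluster's other genes, 6 are given here, and they had little or no RNA in the same cells. In DMSO, where CCR1 had a mean of 86.8 RPKM, CCR3 had 0.238 RPKM, CXCR6 0.0797, CCRL2 0.0081, CCR2 0.0066 and CCR9 0.0030 RPKM, and XCR1 was at 0. CCR3, under the filter on low values, had mean levels of 0.238 RPKM with DMSO, 0.430 with LEN, 0.315 with AI-10-104 and 0.328 with both agents (15 to 40 reads per sample).

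**Figure D3:**
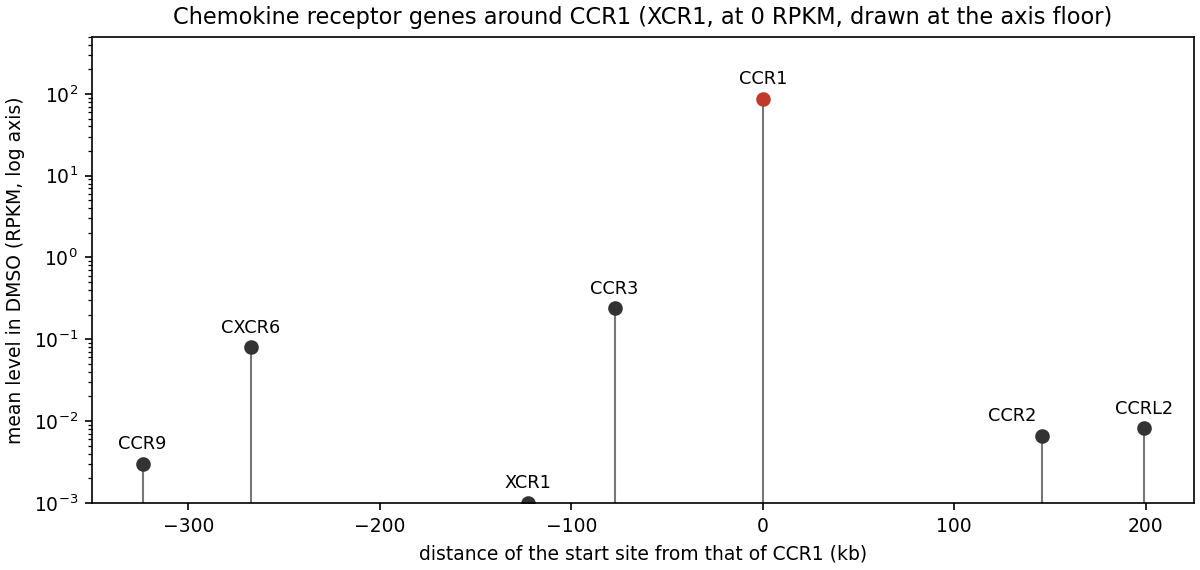
Mean DMSO level (vertical log axis, RPKM, n = 3) of CCR1 and 6 chemokine receptor genes around it against the distance of their start sites from that of CCR1 (horizontal axis, kb). CCR1 stands at 86.8 RPKM and these neighbours at 0.238 RPKM or less, with XCR1 at 0 drawn on the axis floor.

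The sequence before the CCR1 start is shown because it holds the letters TGTGGT, the core that RUNX proteins bind, read on either strand. RefSeq windows of 250 bases before the start (GRCh38.p14) were at hand for 6 of the 10 members and were searched for these letters, for ISRE-like letters (GAAA, 2 free bases and GAAA) of the kind interferon-activated factors bind, and for NF-kappaB-like letters (GGG, 3 free bases and TTCC), on both strands and with overlaps allowed. In the CCR1 window, chr3:46208314-46208563 on the minus strand, the RUNX letters stand 157 to 152 bases before the start in their reverse form, in capitals here.
CCR1: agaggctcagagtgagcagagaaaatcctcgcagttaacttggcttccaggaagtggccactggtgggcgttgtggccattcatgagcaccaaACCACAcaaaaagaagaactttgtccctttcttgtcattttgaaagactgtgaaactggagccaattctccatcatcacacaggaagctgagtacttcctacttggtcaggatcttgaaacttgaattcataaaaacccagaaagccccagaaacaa
The RUNX letters are in 11% of the 35116 RefSeq windows of this length. They are also in the window of CCL3, a gene without a read in these cells, and none of the 3 motifs was found in the windows of CXCR4, CXCR3 and CCR2. Of the 250 bases of the CCR2 window, 247 lie in annotated exons. The CXCR4 window, chr2:136118150-136118399, lies within the GENCODE span of that gene. For these 2 genes the windows are thus not sequence before the GENCODE start. A match is a run of letters and not a measured binding site.

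CCR1 was most like FAM53B (Pearson r = 0.949 over the 12 samples), TIMP1 (0.948) and MAN2B1 (0.947) in its log2 level. TIMP1, an inhibitor of matrix metalloproteinases, had mean levels of 0.503 and 0.418 RPKM in the conditions without LEN (DMSO and AI-10-104) and of 1.03 and 0.877 RPKM in those with it (LEN and LEN+AI-10-104). MAN2B1, a lysosomal mannosidase, had 18.6, 17.9, 21.0 and 21.1 RPKM in the same order.

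CCR10 was the third abundant receptor, and its level was highest with both agents. It was 31.8, 28.7 and 31.2 RPKM in DMSO, and with LEN the 3 samples had 24.9, 29.2 and 29.7 RPKM. It was 26.7, 35.5 and 25.8 RPKM in the AI-10-104 replicates and 35.5, 39.1 and 32.4 RPKM in the LEN+AI-10-104 replicates. The LEN+AI-10-104 samples were above all DMSO and LEN samples, and overlapped the AI-10-104 samples through AI-10-104 replicate 2 alone.

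CCR10 passed the test in 0 of the 7 comparisons. LEN+AI-10-104 differed by 0.22 ± 0.11 (SE) from DMSO, by 0.35 ± 0.11 from LEN and by 0.29 ± 0.11 from AI-10-104 on the log2 scale, with limma adjusted p of 0.27, 0.109 and 0.0999. LEN alone and AI-10-104 alone gave -0.13 and -0.07 against DMSO (limma adjusted p = 0.79 and 0.76). The interaction was 0.42 (95% interval 0.07 to 0.78), with a limma adjusted p of 0.305. Whether several of these differences passed turned on AI-10-104 replicate 2, which stood apart within its condition, as a library of each other condition also did. Without it the log2 differences of LEN+AI-10-104 from LEN and from AI-10-104 were 0.35 and 0.44, with limma adjusted p of 0.0274 and 0.00619, and the interaction was 0.57 with an adjusted p of 0.0268. The differences from LEN and from DMSO hold none of that library's values, and stayed at 0.35 and 0.22. Only their p could change, through the spread fitted over all samples and the adjustment over all genes. The difference from DMSO was not called (limma adjusted p = 0.105). Leaving out that library also raised the number of genes called for an interaction from 0 to 415 up and 125 down, of 11241 tested.

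CCR10 is at chr17:42678889-42683917 on the minus strand. In GENCODE 44 it shares 463 exon bases with CNTNAP1, a gene of neuron and glia contacts on the other strand. The libraries were made with a directional kit, which keeps strand, but whether the reads were counted by strand is not given in the sources used here, and without it reads of both genes in these bases cannot be told apart. CNTNAP1 had 3.58, 4.28, 4.14 and 5.22 RPKM on average in DMSO, LEN, AI-10-104 and LEN+AI-10-104, and rose by 0.53 on the log2 scale with LEN+AI-10-104 against DMSO (limma adjusted p = 0.000308). Its part in the CCR10 values was not tested. The length used for CCR10 by the authors was 1244 bases, where GENCODE 44 has 2619 exon bases. Dividing the same reads by the longer length, without counting reads anew on it, gave a DMSO mean of 14.5. Whether the 463 shared bases lie within the 1244 bases was not examined.

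CXCR3, the receptor of CXCL10, was rare, and its level was highest with both agents. The DMSO samples had 24, 12 and 14 reads, the LEN samples 21, 33 and 23, the AI-10-104 samples 12, 33 and 12 and the LEN+AI-10-104 samples 25, 33 and 27. In RPKM the DMSO samples were at 0.387, 0.201 and 0.332, the LEN samples at 0.546, 0.547 and 0.404, the AI-10-104 samples at 0.266, 0.565 and 0.262 and the LEN+AI-10-104 samples at 0.651, 1.02 and 0.668. Per length and depth the LEN+AI-10-104 samples were above the 9 others, and the LEN samples were above the DMSO samples.

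With its mean of 0.488 RPKM, CXCR3 was just under the filter, and was tested where the filter was a mean of at least 10 reads (12816 genes). There its level rose 1.12 on the log2 scale with LEN+AI-10-104 against DMSO (SE 0.25, limma adjusted p = 0.0171) and 0.96 against AI-10-104 (adjusted p = 0.0264). LEN gave 0.58 (adjusted p = 0.43) and AI-10-104 0.16 (adjusted p = 0.77) against DMSO, and the difference of LEN+AI-10-104 from LEN was 0.54 (adjusted p = 0.25). With no filter on low values the limma adjusted p for LEN+AI-10-104 were 0.0723 against DMSO and 0.0931 against AI-10-104. With the 10-read filter and a second change in the processing, the first call was made in 16 of 18 settings, and was lost without DMSO replicate 2 (adjusted p = 0.0757) or LEN+AI-10-104 replicate 2 (0.0681). The second was made in 14 of 18, and was lost without AI-10-104 replicate 1 (0.111) or 3 (0.107) or LEN+AI-10-104 replicate 1 (0.0544) or 2 (0.0933). CXCR3 is at chrX:71615916-71618511 on the minus strand.

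CCR2, the receptor of CCL2, is at chr3:46353864-46360940 on the plus strand, 145.6 kb from CCR1. The DMSO samples had 1, 0 and 1 reads, the LEN samples 3, 5 and 2, the AI-10-104 samples 1, 0 and 1 and the LEN+AI-10-104 samples 5, 2 and 0. Apart from LEN replicate 2 and LEN+AI-10-104 replicate 1, with 5 reads each, all were at or under the floor of 3 reads. A difference between conditions was not detectable at this depth (limma adjusted p = 0.73 for LEN against DMSO with no filter).

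CXCL10, an interferon-inducible ligand that draws T cells through CXCR3, was the one ligand of the list with reads in every sample. The DMSO samples had 9, 8 and 11 reads, the LEN samples 9, 13 and 20, the AI-10-104 samples 18, 29 and 18 and the LEN+AI-10-104 samples 22, 11 and 11. In RPKM the DMSO samples were at 0.236, 0.218 and 0.425, the LEN samples at 0.381, 0.351 and 0.571, the AI-10-104 samples at 0.650, 0.808 and 0.639 and the LEN+AI-10-104 samples at 0.932, 0.553 and 0.443. Every sample with AI-10-104 was above every DMSO sample, by a small margin for LEN+AI-10-104 replicate 3, and the LEN samples overlapped the DMSO samples.

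The CXCL10 level rose 2.08-fold with AI-10-104 against DMSO (95% interval 1.38 to 3.13, log2 fold change 1.06 ± 0.27 SE, limma adjusted p = 0.0498). It was 1.87-fold with LEN+AI-10-104, which did not pass (log2 0.90, adjusted p = 0.0621), and 1.37-fold with LEN (log2 0.46, adjusted p = 0.63). CXCL10 passed the filter of 0.5 RPKM through the samples where it was high, since its mean was 0.517 RPKM over all samples and 0.457 RPKM without the AI-10-104 samples. The call with AI-10-104 was made in 9 of 23 alternatives, and it was kept on leaving out DMSO replicate 3, LEN+AI-10-104 replicate 1 or LEN+AI-10-104 replicate 3 and lost on leaving out any other library (limma adjusted p from 0.0552 to 0.162). With the filter of 10 reads it passed with AI-10-104 (adjusted p = 0.0315) and with LEN+AI-10-104 (0.0399). Its log2 fold change with AI-10-104 was 0.40 with a pseudocount of 1 and 1.84 with quantile normalization, and with LEN+AI-10-104 it was 0.34 and 1.60. The interaction was -0.61 (95% interval -1.45 to 0.23, adjusted p = 0.47).

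The sequence before the CXCL10 start is shown because the gene is known as an interferon and NF-kappaB target, and both motifs are in it. The window is chr4:76023498-76023747 on the minus strand, and the capitals mark the ISRE-like letters, 221 to 212 bases before the start, and the NF-kappaB-like letters, 177 to 168 bases before it.
CXCL10: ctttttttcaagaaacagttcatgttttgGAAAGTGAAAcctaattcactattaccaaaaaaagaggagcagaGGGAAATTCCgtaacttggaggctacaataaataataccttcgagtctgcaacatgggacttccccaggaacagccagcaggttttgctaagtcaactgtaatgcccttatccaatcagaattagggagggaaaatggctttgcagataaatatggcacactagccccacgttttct
The ISRE-like letters are in 3.02% and the NF-kappaB-like letters in 5.67% of the 35116 windows, and the window holds no RUNX letters.

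CXCL10 is at chr4:76021118-76023497 on the minus strand, between the other ligands of CXCR3. CXCL9 on the one side had 0 to 2 reads per sample and CXCL11 on the other 0 to 3, so that of the 3 neighbours CXCL10 alone was above the floor. In its log2 level CXCL10 was most like STARD4, a sterol carrier (Pearson r = 0.905 over the 12 samples), STK39, a kinase of ion transport (0.880), and TESMIN (0.873), and at 8 to 29 reads such likeness is imprecise. The ratio of the CXCL10 level to that of its receptor CXCR3, both in RPKM, was 1.43 to 2.44 in the AI-10-104 samples, against 0.610 to 1.28 in the DMSO samples, 0.641 to 1.41 in the LEN samples and 0.542 to 1.43 in the LEN+AI-10-104 samples. The AI-10-104 and LEN+AI-10-104 ranges overlap. With 8 to 29 reads of CXCL10 and 12 to 33 of CXCR3 per sample, the ratio is imprecise, and it was not tested.

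CXCL16, a membrane-bound ligand of CXCR6 that can be shed, is at chr17:4733533-4739928 on the minus strand and had 4 reads in all, 2 of them in DMSO replicate 3, 1 in LEN replicate 2 and 1 in AI-10-104 replicate 1. It shares 76 exon bases with MED11 on the other strand, which had a mean of 6.10 RPKM. CCL3, CCL4 and CCL5, which are inflammatory ligands, are on chromosome 17 at chr17:36088256-36090169, chr17:36103827-36105621 and chr17:35871491-35880793. They had no read in any sample, as had CCL3L1, CCL3L3, CCL4L1 and CCL4L2, the near-identical copies of CCL3 and CCL4. How reads that match several copies were counted is not given in the sources used here, so CCL3 and CCL4 are uncertain. CCL3 also shares 1115 exon bases in GENCODE 44 with CCL3-AS1 on the other strand, which has no row of that name in the matrix. The effect of this overlap on the CCL3 count was not tested. The deposited lengths of CCL3 and CCL5 were 2391 and 2624 bases, against 1494 and 1364 exon bases in GENCODE 44.

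The members and lists were chosen with earlier results of these data known, so the shares over all genes stand beside their counts without a test. LEN raised 1 of the 4 members tested against DMSO (CCR1), where 0.587% of all genes tested were called up. AI-10-104 raised 2 of 4 (CXCR4 and CXCL10), with 0.685% of all genes, a count that includes CXCL10, which was in the tested set only through its levels with AI-10-104 and with both agents. LEN+AI-10-104 raised 1 of 4 against DMSO (CXCR4), with 2.3% of all genes. Against LEN, LEN+AI-10-104 changed 0 of 4 (0.872% of genes up, 0.81% down) and against AI-10-104 also 0 of 4 (3.16% up, 0.471% down). AI-10-104 against LEN lowered 1 of 4 (CCR1, with 2.73% of genes down) and raised 0 of 4 (1.24% up). With LEN, AI-10-104 and LEN+AI-10-104, 0 of the 4 were called down against DMSO, where 0.0623%, 1.09% and 0.641% of all genes were. With the filter of 10 reads, 5 members were tested, and the share of genes called up was 0.702% with AI-10-104 and 2.65% with LEN+AI-10-104 against DMSO and 3.5% with LEN+AI-10-104 against AI-10-104. For the interaction limma called 0 of the 4 members and 0.0% of genes, with 1621 of 11241 genes at an unadjusted p under 0.05, CCR10 among them, and voom called 1 gene up and 1 down.

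Over the 4 members tested, the median log2 fold change was 0.20 with LEN, 0.15 with AI-10-104 and 0.31 with LEN+AI-10-104 against DMSO, where the medians over all genes tested were -0.0021, 0.0081 and 0.02. These medians include CXCL10, which was in the tested set only through its levels with AI-10-104 and with both agents. The other members tested, CXCR4, CCR1 and CCR10, were at 0.04, 0.36 and -0.13 with LEN. They were at 0.32, -0.02 and -0.07 with AI-10-104 and at 0.36, 0.25 and 0.22 with LEN+AI-10-104. Among all 10 members, the samples of 5 did not overlap between LEN+AI-10-104 and DMSO and were higher in the former (CXCR4, CCR1, CCR10, CXCR3 and CXCL10), as for 18.1% of the genes tested. Between LEN and DMSO this held for 3 (CCR1, CXCR3 and CCR2, the last from 2 to 5 reads against 0 to 1), with 9.42% of genes. The percentages are over the 11241 genes that passed the filter on low values, which CXCR3 and CCR2 did not. CCR2 lay at or near the floor of 3 reads, so its separation carries little weight. Between AI-10-104 and DMSO it held for 2 (CXCR4 and CXCL10), with 13.1% of genes. LEN+AI-10-104 lay above LEN for CXCR4, CCR10 and CXCR3 (15.9% of genes) and above AI-10-104 for CCR1 and CXCR3 (19.0%). AI-10-104 lay above LEN for CXCR4 and CXCL10 (17.1%) and below it for CCR1 and CCR2 (15.0%).

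**Figure D4:**
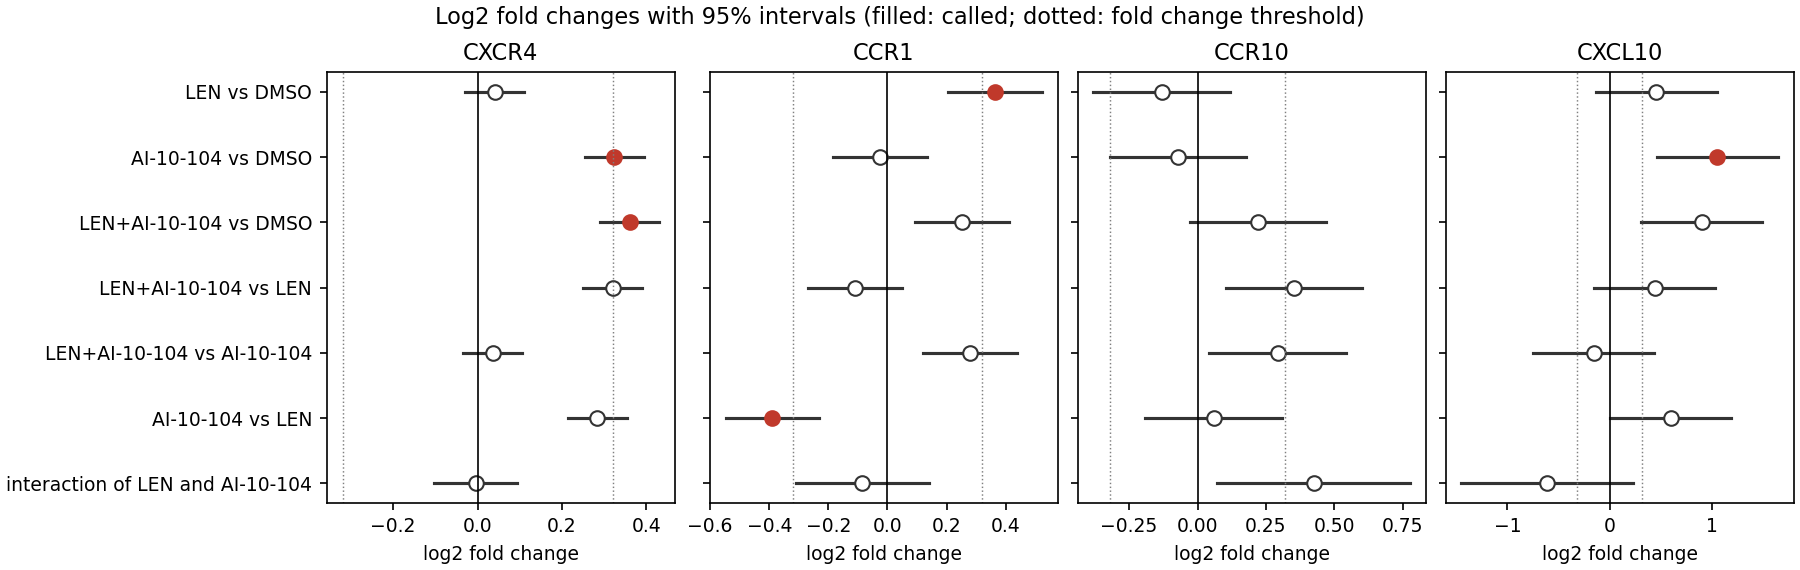
Log2 fold changes (horizontal axes, each on its own scale) of the 4 members tested in 6 comparisons and the interaction, with 95% intervals from limma; filled points were called and dotted lines mark the fold change threshold of 0.32, which the interaction did not use. CXCR4 was called in both comparisons of AI-10-104 treatments with DMSO, and CCR1 in the comparisons of LEN with DMSO and with AI-10-104.

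The remaining chemokine genes had few reads or none. Of 43 other ligand genes, 27 had no read and 41 had at most 3 reads in every sample. CCL20, a ligand of CCR6, was the single one that passed the filter, and it was not called in any comparison (0.880 RPKM in DMSO and 0.552 in LEN, log2 -0.58, limma adjusted p = 0.49). Of 18 other receptor genes, 5 had no read, 11 had at most 3 reads in every sample, and 0 passed the filter. The highest of them was CCR3, with 15 to 40 reads per sample, a range like that of CXCR3 and CXCL10.

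Of 24 genes of chemokine signalling and turnover (G protein subunits, receptor kinases, arrestins, effectors of migration, sheddases), 16 were tested. Against DMSO, 0 of the 16 were called with LEN (0.587% of all genes up, 0.0623% down), 0 with AI-10-104 (0.685% up, 1.09% down) and 1 with LEN+AI-10-104 (2.3% up, 0.641% down), and 0 were called in the 3 other comparisons and the interaction. Their median log2 fold changes against DMSO were 0.0098, 0.00064 and 0.03. The gene that rose was VAV1, an exchange factor for small GTPases that links receptors to the cytoskeleton. It was at 23.3 ± 0.510 RPKM (SD, n = 3) with DMSO, 26.7 ± 0.198 with LEN, 26.7 ± 0.361 with AI-10-104 and 31.2 ± 0.936 with both agents. Its log2 fold change was 0.42 with LEN+AI-10-104 (limma adjusted p = 1.33e-05) and 0.19 with either agent alone (adjusted p = 0.013 and 0.0065, below the fold threshold).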

How the data were processed

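The authors counted reads mapped to GRCh38 with STAR on genes and deposited RPKM values with gene lengths. Submitters' processing notes also name FastQC, Cuffnorm and DESeq2, without versions. Each value times gene length was a whole multiple of 1 step per sample (100.0% within 0.05 reads), which gave the reads. limma 3.58.1 (R 4.3.3; eBayes with trend, 1 mean per condition, 12 samples) was run on log2(RPKM + 0.1), since deposited RPKM are not counts. It was tested on simulated data (LEN against DMSO, 11231 genes), where 156 of 200 changed genes and 7 unchanged genes were called. Members and lists were chosen with earlier results of these data known. All members were named, with genes of other lists called in a comparison and the 3 genes most like each called member; CCL20, CNTNAP1, the 4 copies of CCL3 and CCL4 and the cluster neighbours of CCR1 and CXCL10 were named after their values were seen. Alternatives were pseudocounts of 1 and 0.01, other filters, rescaling, quantile normalization, voom, a replicate block, the compared conditions only, no fold threshold and each replicate left out. Thinned reads, AI-10-104 against LEN and the CXCR3 settings were chosen after seeing the data. Samples of equal replicate number were only weakly alike (mean correlation of deviations 0.0522, over 0.1 in 2 of 18 pairs). Those of unequal number had a mean of -0.0261, over 0.1 in 0 of 36 pairs. The main fit held no replicate block. Python 3.11.15 and GENCODE 44 were used. Replicate spread exceeded counting noise (chi-square per degree of freedom 1.88 to 9.64). No sample was left out.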

Additional observations from a re-analysis of the deposited data

How the results depend on the processing

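The number of members called moved with the processing, out of 4 tested, or 5 with the 10-read filter (CXCR3 added) and 7 with no filter. For LEN against DMSO, 1 member became 0 with no filter and in a fit of the compared conditions only, and 0 to 1 on leaving out a replicate. For AI-10-104 against DMSO, 2 became 1 with a pseudocount of 1, no filter, median-ratio rescaling, voom, compared conditions only and thinned reads, and 0 to 2 on leaving out a replicate. For LEN+AI-10-104 against DMSO, 1 became 3 with the 10-read filter (CXCR3 and CXCL10 added) and 2 with quantile normalization and voom, and 1 to 2 on leaving out a replicate. Against LEN, 0 became 1 with a pseudocount of 0.01 or no fold threshold (0 to 1 on leaving out a replicate). Against AI-10-104, 0 became 1 with the 10-read filter (CXCR3) or no fold threshold (CCR1), and 0 to 2 on leaving out a replicate. The interaction had 0 to 1, and AI-10-104 against LEN went from 1 to 2 with no fold threshold (1 to 1 on leaving out a replicate). The cause was not tested.

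With the replicate number as a block, 1 member in place of 2 was called for AI-10-104 against DMSO (CXCL10, limma adjusted p = 0.0592), and the other counts were unchanged. The numbers are no shared batch in the labels.

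Signs reversed near 0 on leaving out 1 library. Over the libraries left out, the log2 fold change of CXCL10 in LEN+AI-10-104 against AI-10-104 ran from -0.42 to 0.0455 (above 0 without LEN+AI-10-104 replicate 3). The CXCR4 interaction ran from -0.033 to 0.0211 (above 0 without DMSO replicate 2, LEN replicate 1 or AI-10-104 replicate 1). In AI-10-104 against DMSO, CCR1 ran from -0.0985 to 0.0164 (above 0 without DMSO replicate 1 or 2 or AI-10-104 replicate 3) and CCR10 from -0.22 to 0.0128 (above 0 without AI-10-104 replicate 3). CCR10 in AI-10-104 against LEN ran from -0.0857 to 0.14 (below 0 without LEN replicate 1 or AI-10-104 replicate 2). With the 10-read filter, CXCR3 in AI-10-104 against DMSO ran from -0.13 to 0.31. In AI-10-104 against LEN, CXCR3 stayed below 0 and was called in 1 of 18 settings (limma adjusted p = 0.0442). At 8 to 33 reads, depth limits CXCL10 and CXCR3.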
